A study of Homo sapiens with 4 samples.

Results

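The genes described here are 10 genes of the Hippo pathway and its output: the coactivator YAP1, its DNA-binding partner TEAD1, the kinase LATS2, the scaffold AMOTL2, the LIM-domain adaptor AJUBA, and the YAP target genes CCN1 (also named CYR61), CCN2 (CTGF), THBS1, ANKRD1 and AXL. They were chosen by name, with earlier results of these data known. Every array probe that the platform annotation gives to them was taken. That made 15 probes of the 47322 on the array, for 10 of 20046 genes with a symbol. The samples were H358 cells, an established human lung adenocarcinoma line, profiled on 4 one-colour Illumina HT-12 BeadChips. In 2 samples the cells had been transfected with an shRNA directed at ADAR, and in the other 2 with a scrambled sequence. ADAR edits double-stranded RNA by turning adenosines into inosines, and the hairpin of an shRNA is cut into a small RNA that guides the destruction of a matching transcript. The study describes its duplicates as biological but not whether they were separate cultures. The p-values rest on the spread between 2 arrays a group, in part borrowed from the other tested probes, and that spread may be partly technical. Neither the vector, the time after transfection, the slide nor the scan was given in the sources used here, and a batch could not be tested.

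In the Hippo pathway a chain of kinases, MST (STK3 and STK4) and then LATS1 and LATS2, phosphorylates YAP and its paralog TAZ (WWTR1), which holds them in the cytoplasm. Unphosphorylated YAP enters the nucleus, binds TEAD factors and switches on genes for growth, matrix and cell shape. In epithelial tissues such as the lung the pathway answers to cell density, adhesion and tension, and LATS2 and AMOTL2 are themselves induced by YAP and act back on it. The arrays measured transcripts only, and neither phosphorylation nor the place of YAP in the cell was measured.

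TEAD factors recognise the letters GGAATG, and promoter sequences are shown for 3 targets. These are CCN2, which was higher on the ADAR shRNA arrays, THBS1, which was detected on the scrambled arrays alone, and ANKRD1, which was hardly detectable. Each is the stretch of 250 bases before the gene's start, from RefSeq on build GRCh38.p14, written 5′ to 3′ on the gene's strand, with GGAATG, and in ANKRD1 also the AP-1 letters TGANTCA, in capitals.
CCN2, chr6:131951373-131951622, minus strand: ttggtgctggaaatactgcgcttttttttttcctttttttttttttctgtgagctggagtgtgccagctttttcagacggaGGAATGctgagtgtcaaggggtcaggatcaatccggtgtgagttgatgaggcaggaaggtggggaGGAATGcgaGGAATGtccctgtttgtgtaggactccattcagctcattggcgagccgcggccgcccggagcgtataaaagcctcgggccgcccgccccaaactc
THBS1, chr15:39580829-39581078, plus strand: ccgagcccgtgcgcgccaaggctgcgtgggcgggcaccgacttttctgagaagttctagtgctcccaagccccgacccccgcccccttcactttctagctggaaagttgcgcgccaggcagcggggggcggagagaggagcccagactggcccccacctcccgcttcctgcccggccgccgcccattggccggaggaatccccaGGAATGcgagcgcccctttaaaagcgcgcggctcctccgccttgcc
ANKRD1, chr10:90921088-90921337, minus strand: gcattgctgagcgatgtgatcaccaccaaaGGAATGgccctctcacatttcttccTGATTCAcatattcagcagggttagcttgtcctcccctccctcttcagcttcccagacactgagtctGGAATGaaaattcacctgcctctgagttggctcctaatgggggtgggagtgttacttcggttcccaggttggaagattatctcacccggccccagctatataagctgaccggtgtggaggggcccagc
In CCN2 the letters GGAATG began 169, 104 and 95 bases before the start, and in THBS1 46 bases before it. In ANKRD1 they began 220 and 128 bases before the start, and the TGANTCA match 195 bases before it. Both strands were searched, in windows of 300 bases that reach 50 bases past the start. No TGANTCA match overlapped a GGAATG match in a member. RefSeq windows were found for 8 of the 10 members. Of their 11 windows 8 held GGAATG, 1 for each gene, with these places besides the 3 genes shown: YAP1 at 162, AMOTL2 at 69, AJUBA at 59 and AXL at 212 bases before a start, and LATS2 at 10 bases after it. In AMOTL2 and AXL it lay on the opposite strand. Of all 35116 promoter windows of this length, 14.0% held GGAATG on either strand and 7.7% held TGANTCA. By gene, 16.7% of 27305 genes held GGAATG in at least 1 window, and 4 of the 11 other YAP targets with a window did. Among the members, of the 8 with a window ANKRD1 alone held TGANTCA. These are matches of letters in a window, not measured binding sites.

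ADAR itself was lower in ADAR shRNA cells. Its brightest probe, ILMN_1776777, read 754.7 and 932.5 in raw signal on the ADAR shRNA arrays, against 2703 and 2676 on the scrambled arrays. On the log2 scale it fell by 1.01 (SE 0.22, limma adjusted p = 0.00637; -0.85 and adjusted p = 0.051 without ADAR shRNA replicate 1). The groups differed widely in all: normalized values correlated at 0.986 within the ADAR shRNA pair and 0.982 within the scrambled pair, against 0.799 to 0.823 across groups, and 10731 of 21263 tested probes (50.5%) changed. The ADAR shRNA arrays were dimmer, with raw upper quartiles of 94.5 and 92.1 against 143 and 115 for the scrambled arrays. A second ADAR probe, ILMN_2320964, gave a difference of -0.19 (adjusted p = 0.562; -0.90 and adjusted p = 0.0397 under median scaling), and the third, ILMN_1706963, was detected on 1 scrambled array and was not tested. Markers of the labelled cell type did not hold on all arrays. EPCAM, CDH1 and NKX2-1 were above background on neither ADAR shRNA array and on both scrambled arrays, while the keratins KRT7, KRT8, KRT18 and KRT19 and the mucin gene MUC1 were detected on all 4. Over all tested probes 24.2% rose and 26.2% fell, to be set beside the counts of marker probes here. Of 14 epithelial marker probes 9 fell and 2 rose. The falls include every probe of EPCAM, CDH1 and NKX2-1, which were tested only because the scrambled arrays detected them, so their direction was fixed. The other falls were of keratins detected on all 4 arrays. KRT7 fell by 4.75, KRT8 by 1.83 and KRT19 by 1.63 (limma adjusted p = 2.12e-05, 0.000241 and 0.000357). The KRT18 probes did not pass, and the 2 rises were of MUC1. The summed raw signal of the 14 probes was 3367 and 3062 on the ADAR shRNA arrays against 33942 and 31546 on the scrambled arrays. Of 10 tested mesenchymal marker probes 4 rose and 3 fell (all 19 probes summed to 9847 and 8626 on the ADAR shRNA arrays, against 14641 and 9690). Of the 3 endothelial markers CDH5 and VWF were detected on no array and PECAM1 on the scrambled arrays alone (difference -0.42, adjusted p = 0.136), and the 3 probes summed to 149 and 154 on the ADAR shRNA arrays and 184 and 168 on the scrambled arrays. Of the haematopoietic markers CD3E, PTPRC and LYZ were detected on no array, whereas 3 of 5 tested probes of CD14 and CD68 rose (all 12 probes summed to 3178 and 3940 on the ADAR shRNA arrays, against 2365 and 2239). Called probes of FN1, COL1A1, LUM and CD14 included some detected in 1 group alone. The part of all these differences in the results below was not tested. Nor was the identity of the cells, so every difference is one between arrays so labelled, and whether the groups differed in more than the shRNA cannot be told from them. In bulk RNA, fewer cells of a kind and less RNA per cell cannot be told apart.

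Levels are normalized log2 intensities, and each difference is ADAR shRNA minus scrambled. A probe counts as detected where its deposited detection p, which sets it against the array's negative controls, was under 0.05. A probe was tested with limma where it was detected on at least 2 of the 4 arrays, and it is said to rise or fall at a Benjamini-Hochberg adjusted p under 0.05 over all 21263 tested probes. Of the 15 member probes 12, from 9 genes, were tested, and 3 rose, 7 fell and 2 did not pass. Over all tested probes 24.2% rose and 26.2% fell, so that a call on its own was common on these arrays. Of the 12 tested probes, 3 (one each of TEAD1, AJUBA and THBS1) passed the filter through the scrambled arrays alone, so they had to read lower in ADAR shRNA cells, and their counts support nothing. Among the 9 member probes detected on all 4 arrays 7 were called, against 49.6% of all such probes. The members were chosen with earlier results of these data known, so a share above that of all probes tests nothing. The groups did not overlap at 10 of the 12 tested member probes, and at 75.7% of all tested probes. ADAR shRNA was the higher group at 3 of those member probes and the lower at 7, against 37% and 38.7% of all tested probes. Without the 3 probes detected in scrambled cells alone, 7 of 9 did not overlap, 3 of them higher and 4 lower in ADAR shRNA cells. That is near the 75.7% of all tested probes, and the share over all probes detected on all 4 arrays was not computed.

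**Figure D1:**
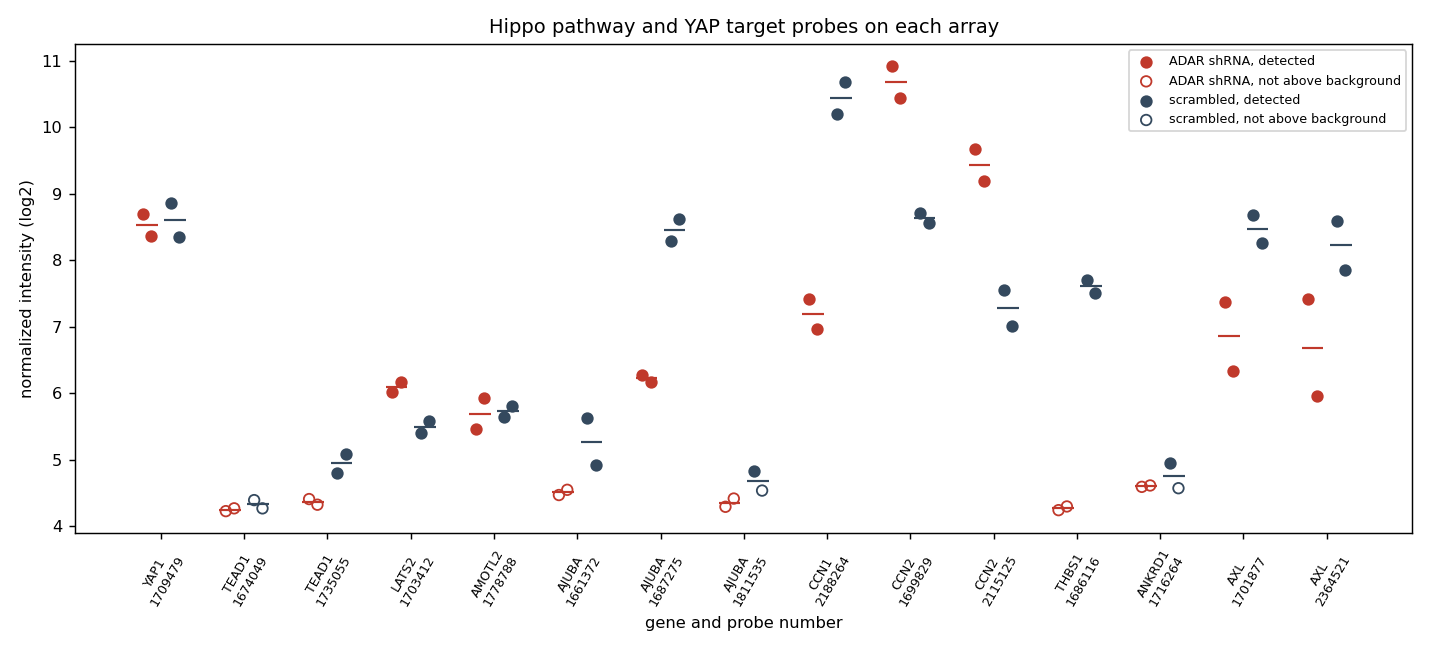
Normalized log2 intensity (y axis) of the 15 member probes (x axis) on the 2 ADAR shRNA arrays (red, left of each pair) and the 2 scrambled arrays (dark, right); bars are group means and open circles are readings not above background. CCN2 lies higher on the ADAR shRNA arrays at both probes, CCN1, THBS1, AXL and AJUBA (probe ILMN_1687275) lie lower, and the groups of YAP1 and AMOTL2 overlap.

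The coactivator itself gave no detectable difference. YAP1 (ILMN_1709479) read 8.69 and 8.37 on the ADAR shRNA arrays and 8.86 and 8.34 on the scrambled arrays, and the groups overlapped. The difference was -0.07 (95% interval -0.63 to 0.49, adjusted p = 0.833). Its raw signal was lower on both ADAR shRNA arrays, at 334.0 and 271.2, against 711.4 and 398.7 on the scrambled arrays, as was the signal of the arrays in general. With median scaling in place of quantile normalization the difference was -0.76 (adjusted p = 0.0674), where the median of all tested probes was -0.38.

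TEAD1, the DNA-binding partner, was near background throughout. Its probe ILMN_1735055 read 4.41 and 4.32 on the ADAR shRNA arrays, neither above background, and 4.80 and 5.09 on the scrambled arrays, both detected, so the groups did not overlap. The fall was at least 1.02-fold (fitted difference -0.58, SE 0.20, adjusted p = 0.0435). The bound sets the mean of the brighter group against a floor. On each array of the dimmer group the floor was the signal of the dimmest detected probe, or the probe's own signal where that was higher, and every "at least" here was made in this way. The call was lost under 7 of 13 alternatives, among them leaving out ADAR shRNA replicate 1, ADAR shRNA replicate 2 or scrambled replicate 2 (-0.65, -0.56 and -0.43, adjusted p = 0.106, 0.152 and 0.171). The other TEAD1 probe, ILMN_1674049, was detected on no array and read 4.23 and 4.27 on the ADAR shRNA arrays and 4.39 and 4.27 on the scrambled arrays.

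LATS2, the kinase that phosphorylates YAP and is induced by it, was slightly higher. Its probe ILMN_1703412 read 6.02 and 6.17 in ADAR shRNA cells and 5.40 and 5.59 in scrambled cells, with no overlap, and rose by 0.60 (SE 0.20, adjusted p = 0.0343), or 1.52-fold. In raw signal the groups overlapped, at 87.7 and 90.7 on the ADAR shRNA arrays and 94.6 and 86.3 on the scrambled arrays. The call was lost without any 1 of the 4 arrays: the rise was 0.70 and 0.54 without ADAR shRNA replicates 1 and 2, and 0.48 and 0.68 without scrambled replicates 1 and 2 (adjusted p = 0.0763, 0.15, 0.125 and 0.055). It was 0.20 (adjusted p = 0.391) under median scaling and 0.07 (adjusted p = 0.813) with no normalization between arrays.

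The adaptors differed from each other. AMOTL2, an angiomotin-family scaffold that binds YAP, read 5.46 and 5.92 in ADAR shRNA cells and 5.65 and 5.80 in scrambled cells, with overlap, a difference of -0.03 (95% interval -0.55 to 0.48, adjusted p = 0.915). AJUBA, a LIM protein that binds LATS kinases and restrains them, was lower. Its probe ILMN_1687275 was detected on every array and read 6.28 and 6.17 in ADAR shRNA cells, against 8.29 and 8.61 in scrambled cells. It fell by 2.23 (SE 0.20, adjusted p = 9.66e-05), a level 4.69-fold lower, and the raw signals were 96.9 and 90.6 against 493.2 and 477.8. A weaker probe, ILMN_1661372, was above background on neither ADAR shRNA array (4.47 and 4.55) and on both scrambled arrays (5.62 and 4.92). It fell at least 1.28-fold (fitted difference -0.76, adjusted p = 0.0394). That call was lost under 10 of 13 alternatives, among them leaving out ADAR shRNA replicate 1, ADAR shRNA replicate 2 or scrambled replicate 1 (-0.77, -0.85 and -0.37, adjusted p = 0.13, 0.101 and 0.207). The third AJUBA probe, ILMN_1811535, was detected on scrambled replicate 1 alone, was not tested, and read 4.29 and 4.42 in ADAR shRNA cells and 4.83 and 4.54 in scrambled cells. Of the 3 probes ILMN_1687275 alone was detected in both groups, and the statement on AJUBA rests on it.

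The matricellular targets CCN1 and CCN2, secreted proteins of one family that are the standard transcripts for reading YAP activity, went in opposite directions. CCN2 was measured by 2 probes. ILMN_1699829 read 10.91 and 10.44 in ADAR shRNA cells, against 8.70 and 8.56 in scrambled cells. ILMN_2115125 read 9.68 and 9.19 in ADAR shRNA cells, against 7.55 and 7.01 in scrambled cells. Neither probe's groups overlapped, and both rose, by 2.04 (SE 0.22, adjusted p = 0.00023) and 2.15 (SE 0.26, adjusted p = 0.000384), or 4.12-fold and 4.45-fold. The raw signal of CCN2 was higher on the ADAR shRNA arrays too, at 1516 and 1067 against 643 and 463 for ILMN_1699829. It was 634 and 446 against 308 and 176 for ILMN_2115125, although these arrays were dimmer in general. Both rises passed under every alternative, with ranges of 1.29 to 2.25 and 1.36 to 2.41. The lowest values, 1.29 and 1.36, came from unnormalized arrays, on which the median over tested probes was -0.52.

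CCN1 (ILMN_2188264) read 7.42 and 6.97 in ADAR shRNA cells, against 10.19 and 10.68 in scrambled cells, with a gap of more than 2 log2 units between the groups. Its means were 7.20 ± 0.32 in ADAR shRNA cells and 10.43 ± 0.35 in scrambled cells (SD, n = 2 each). CCN1 fell by 3.24 (SE 0.25, adjusted p = 4.31e-05), a level 9.43-fold lower. The raw signal, with the standard error over the beads of the array, was 163 ± 11.6 and 128 ± 3.67 on the ADAR shRNA arrays, against 1671 ± 31.6 and 1855 ± 44.0 on the scrambled arrays. Over the alternatives its difference ranged from -3.97 to -2.85, and all passed. Of all tested probes 1.27% had a difference as low or lower, and 4.39% one as high as that of the first CCN2 probe or higher.

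THBS1, which encodes the matrix glycoprotein thrombospondin 1, was detected on the scrambled arrays alone. Its probe ILMN_1686116 read 4.24 and 4.30 on the ADAR shRNA arrays, neither above background, against 7.70 and 7.51 on the scrambled arrays, so the groups lay far apart. The fall was at least 6.44-fold (fitted difference -3.34, SE 0.19, adjusted p = 1.23e-05). The raw signals were 39.8 and 43.5 on the ADAR shRNA arrays, against 340.3 and 236.2 on the scrambled arrays. The fitted difference was -2.07 with no background correction and -2.10 with an offset of 50, and -3.68 to -3.03 under the other alternatives, all past the threshold. The probe passed the filter through the scrambled arrays alone, which fixed its direction.

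AXL, a receptor tyrosine kinase, was lower at both of its probes, which had the widest spread between the ADAR shRNA arrays among the members. ILMN_1701877 read 7.37 and 6.34 in ADAR shRNA cells, against 8.68 and 8.26 in scrambled cells. ILMN_2364521 read 7.41 and 5.95 in ADAR shRNA cells, against 8.59 and 7.86 in scrambled cells. Replicate 1 was the higher array of each pair at both probes, and the groups did not overlap. The first fell by 1.62 (SE 0.34, adjusted p = 0.00533) and the second fell by 1.54 (SE 0.46, adjusted p = 0.024), levels 3.07-fold and 2.92-fold lower. The gap between the ADAR shRNA arrays exceeded bead error: ILMN_1701877 had raw signals of 159 ± 7.15 from 27 beads and 96.9 ± 6.12 from 20 beads. The first probe passed without any 1 array, with differences from -2.16 to -1.12. The second did not pass without ADAR shRNA replicate 2 or scrambled replicate 1 (-0.82 and -1.15, adjusted p = 0.108 and 0.117), and it read -2.31 without ADAR shRNA replicate 1. With the authors' processed values neither passed (-1.78 and -1.75, adjusted p = 0.0766 and 0.169).

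ANKRD1, a nuclear ankyrin-repeat protein and a YAP target in many cell types, was barely above background. Its probe ILMN_1716264 read 4.59 and 4.61 in ADAR shRNA cells and 4.95 and 4.57 in scrambled cells. It was detected on scrambled replicate 1 alone and was not tested, and its groups overlapped. With no filter on detection its difference was -0.16 (adjusted p = 0.648).

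**Figure D2:**
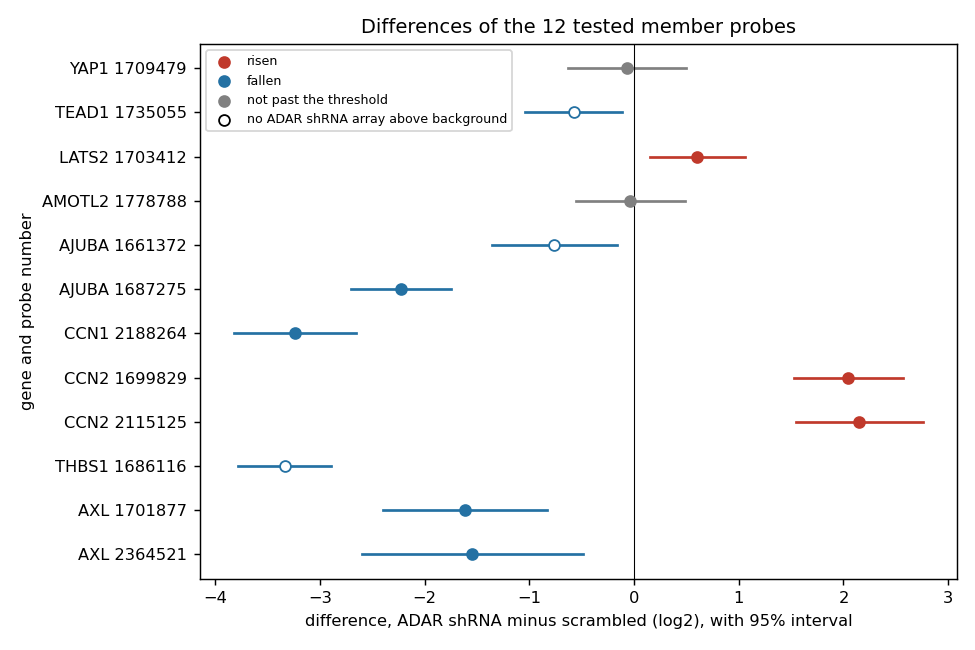
Difference between ADAR shRNA and scrambled cells (x axis, log2) with its 95% interval from limma for the 12 tested member probes (y axis). CCN2 lies at 2.04 and 2.15, CCN1 and THBS1 lie at -3.24 and -3.34, and the intervals of YAP1 and AMOTL2 span 0; open points have no ADAR shRNA array above background.

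Among the upstream regulators of the pathway the share of called probes was near that of the whole array. Of 25 tested probes for 17 of 23 kinases, scaffolds and regulators, 5 rose (20%), 8 fell (32%) and 12 did not pass, against 24.2% and 26.2% of all tested probes. Their median was -0.08, beside a median of 0.00091 over all tested probes. Of the 25, 1 (WTIP, a rise) was detected in 1 group alone, which fixed its direction. Of the 19 detected on all 4 arrays 4 rose and 7 fell, where 25.7% and 23.8% of all such probes did. STK4, one of the MST kinases that start the cascade, read 9.68 and 9.91 in ADAR shRNA cells, against 8.15 and 8.43 in scrambled cells, and rose by 1.51 (SE 0.21, adjusted p = 0.000712). STK3, the other MST kinase, was singled out after its values were seen and fell by 0.85 (SE 0.19, adjusted p = 0.00685). WTIP, a relative of AJUBA, was detected on both ADAR shRNA arrays and on neither scrambled array, so that it passed the filter only through the former. It read at least 1.58-fold higher (adjusted p = 0.00853; adjusted p = 0.054 without ADAR shRNA replicate 1). WWC3, a KIBRA-family scaffold, rose by 0.81 (SE 0.19, adjusted p = 0.00967), but by 0.16 (adjusted p = 0.474) under median scaling, and its adjusted p was 0.0503 without ADAR shRNA replicate 2. WWC1, the gene of KIBRA itself, read 6.89 and 5.53 in ADAR shRNA cells, against 7.92 and 8.26 in scrambled cells, and fell by 1.88 (SE 0.40, adjusted p = 0.00603; 0.0984 with the authors' processed values). RASSF1, which encodes a binding partner of the MST kinases, fell by 1.35 (SE 0.19, adjusted p = 0.000712), and 2 of its 3 tested probes fell. MOB1A, a coactivator of the LATS kinases, fell at both probes, by 1.08 (SE 0.21, adjusted p = 0.0043) at the first; the second, at -0.75, did not pass without ADAR shRNA replicate 2 or scrambled replicate 1 (adjusted p = 0.0883 and 0.0577). LATS1, the paralog of LATS2, has 2 probes, and neither was above background on any array.

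Among the nuclear partners, 7 probes for 6 of 7 genes were tested, of which 2 fell (28.6%, against 26.2% of all tested probes) and 5 did not pass, with a median of -0.32. Of the 7, 3 were detected in 1 group alone, which fixed their direction, and of the 4 detected on all arrays 1 fell. TEAD2, a paralog of TEAD1, read 8.61 and 8.83 in ADAR shRNA cells, against 10.51 and 10.76 in scrambled cells, and fell by 1.92 (SE 0.20, adjusted p = 0.000195). TEAD3 was above background on the scrambled arrays alone, so that it passed the filter only through them, and read at least 1.69-fold lower (adjusted p = 0.0105; 0.0588 without ADAR shRNA replicate 1 and 0.0576 without scrambled replicate 2). TEAD4 gave differences of 0.08 and -0.32 at its 2 tested probes (adjusted p = 0.737 and 0.192). WWTR1, the gene of TAZ, read 5.03 and 5.42 in ADAR shRNA cells and 5.77 and 5.35 in scrambled cells, a difference of -0.33 (95% interval -0.88 to 0.21, adjusted p = 0.274).

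Among the other genes of a published set of conserved YAP and TAZ targets, 14 of 25 tested probes rose (56%) and 6 fell (24%), against 24.2% and 26.2% of all tested probes. The median was 1.24. This list was chosen with earlier results of these data known, so its shares are a description and not a test of YAP targets. Of the 25, 3 were detected in 1 group alone, and of the 19 detected on all 4 arrays 11 rose and 3 fell, where 25.7% and 23.8% of all such probes did. The 3 probes detected in 1 group alone, 1 risen and 2 fallen, had their direction fixed. By gene, 9 of 16 rose, 4 fell, 2 did not pass and 1 was not tested, and some of these genes were called through such a probe alone. With the brightest probe of each gene 9 of them rose and 4 fell, where 3107 and 3914 of 12197 genes did. MYOF, which encodes the membrane repair protein myoferlin, rose at all 3 probes, by 2.69 (SE 0.21, adjusted p = 4.14e-05) at the first and by 1.87 and 2.15 at the others. IGFBP3, an IGF binding protein, rose by 2.25 (SE 0.26, adjusted p = 0.000285) and 1.99. PTPN14, a phosphatase that binds YAP, rose by 2.23 (SE 0.22, adjusted p = 0.000139) and 1.24. NT5E, which encodes the surface nucleotidase CD73, read 5.98 and 6.73 in ADAR shRNA cells, against 10.36 and 10.10 in scrambled cells, and fell by 3.87 (SE 0.28, adjusted p = 2.97e-05). F3, which encodes tissue factor, fell at least 10.4-fold and at least 7.61-fold at its 2 probes (adjusted p = 3.37e-05 and 2.14e-05). In ADAR shRNA cells 1 array detected the first of these probes and neither array the second.

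**Figure D3:**
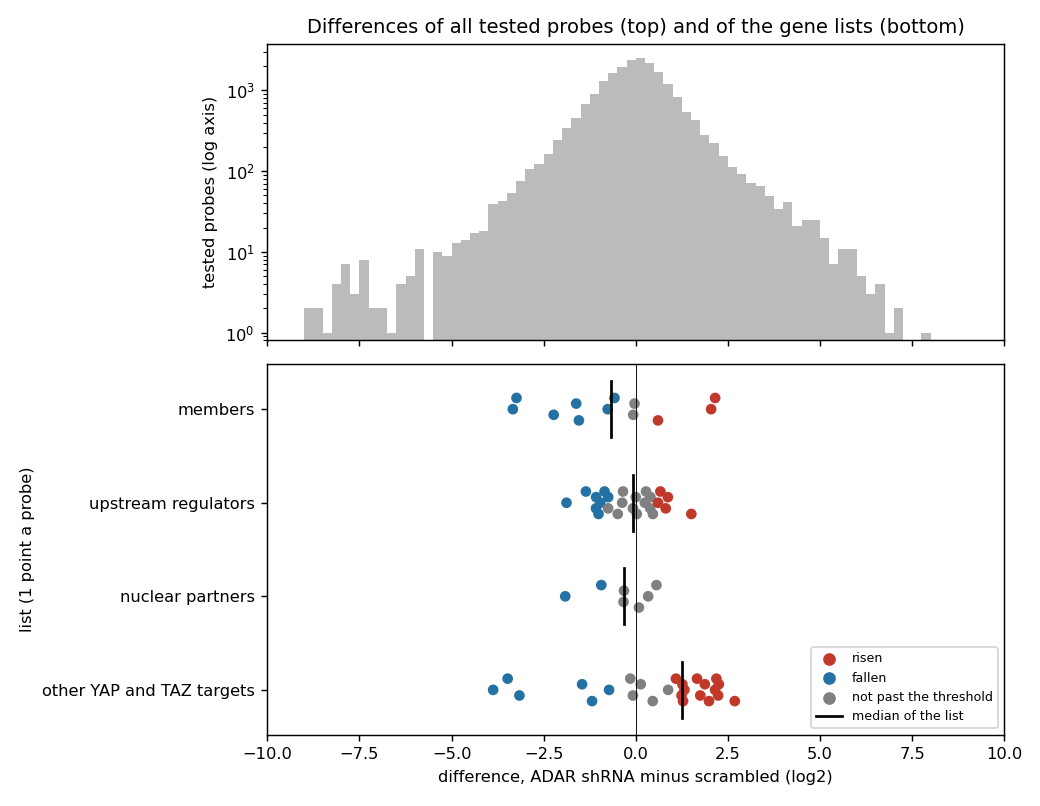
Top, number of tested probes (log axis) by difference between ADAR shRNA and scrambled cells (x axis, log2) over all 21263 tested probes; bottom, the tested probes of the members and of 3 lists, 1 point a probe, with a line at each median. The medians are -0.67 for the members, -0.08, -0.32 and 1.24 for the lists. Every list except the nuclear partners holds called probes on both sides of 0. The member median lies midway between AJUBA ILMN_1661372 and TEAD1 ILMN_1735055 (-0.76 and -0.58). Both were detected on the scrambled arrays alone, which fixed their direction, so this median supports no fall of the members. The lists hold probes detected in 1 group alone too.

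The balance of rises and falls depended on the scaling. The share of called probes that rose was 48% as reported, 25% with each array scaled to its median and 19.2% without normalization. CCN1, CCN2 and the AJUBA probe ILMN_1687275 kept their sign and their call under all 14 alternatives, and both AXL probes kept their sign. THBS1 kept its call under 13, but it passed the filter through the scrambled arrays alone, which fixed its direction. Asking for detection p under 0.01 on all 4 arrays removed it. YAP1 and AMOTL2 did not pass under any alternative, and their sign changed in 2 of 14 each.

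**Figure D4:**
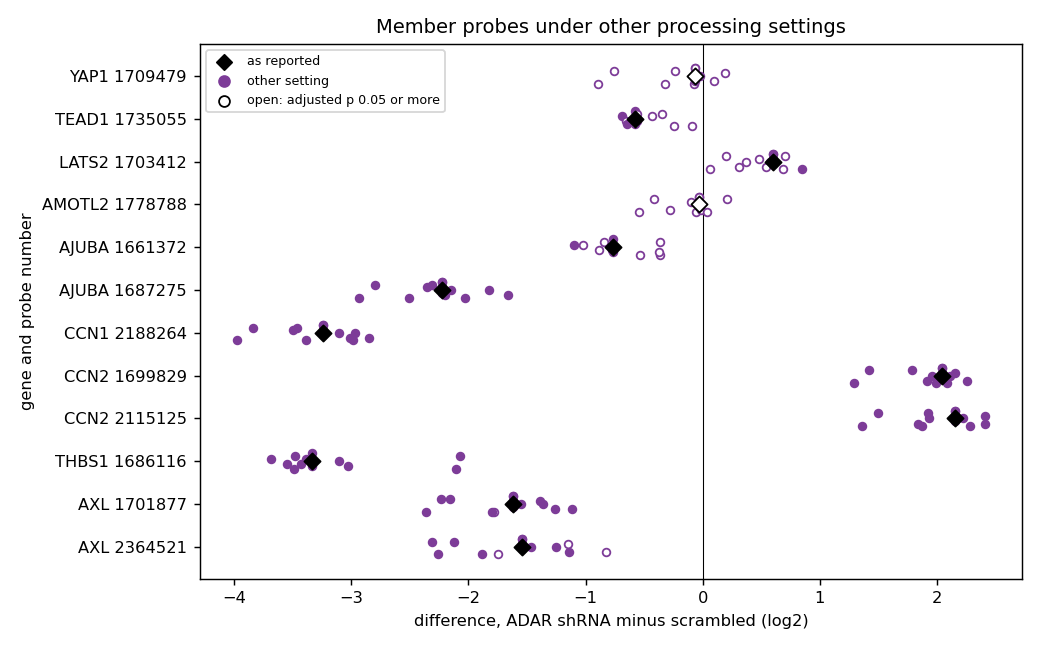
Difference between ADAR shRNA and scrambled cells (x axis, log2) of the 12 tested member probes (y axis) as reported (diamonds) and under each alternative setting (circles); filled symbols have an adjusted p under 0.05. CCN1, CCN2 and the AJUBA probe ILMN_1687275 stay filled throughout, while LATS2 spans 0.07 to 0.85 and loses its call under 9 of 14 alternatives. THBS1 stays filled too, but it was detected on the scrambled arrays alone, which fixed its direction.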

How the data were processed

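Per the file headers, the deposited table from the scanner gave for each probe the mean signal as a linear intensity, its standard error over beads, the bead number and a p-value of detection. GenomeStudio made it, per the submitters' processing notes, which give no version. The authors also deposited processed intensity values, with about 25.1% to 25.2% below 0 and medians of 8.02 to 8.05; their steps were not given in the sources used here, and they served as an alternative only, floored at 16.

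Raw intensities were background corrected with normexp in limma 3.58.1 (R 4.3.3; offset 16), which took the background from the p-values of detection. Quantile normalization between arrays and log2 followed. Groups were compared probe by probe with lmFit and eBayes (2 residual and 5.68 prior degrees of freedom, 2-sided, no replicate block). The fit alone was tried on simulated normalized values with few changed probes. That could not check the background correction or the normalization. Symbols came from the platform annotation: 30113 probes had 1, 8 had several and 17201 were not listed. The 2 arrays of a group differed by more than bead error at 19.2% (ADAR shRNA) and 27.1% (scrambled) of probes, which 2 hybridizations of 1 RNA could also do, and each array was treated as 1 sample, as labelled; the number of arrays limits the precision. The members and the lists were chosen with earlier results of these data known. Named from each list were up to 3 largest rises and falls without overlap, plus the paralogs of members. One result that this rule names is not reported here. Probe sequences were not used here.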

Additional observations from a re-analysis of the deposited data

How the results depend on the processing

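Scaling moved the counts over all probes most. Under median scaling 2825 rose and 8487 fell, and with no normalization between arrays 2130 rose and 8986 fell, in place of 5153 and 5578; rises among probes of the pathway (upstream and nuclear lists) were 2 and 1 in place of 5. Of the member probes 7 fell as reported, against 3 with the authors' values, 4 with no filter on detection and 4 with detection p under 0.01 on all 4 arrays, a filter that removes probes lost from a group. With the authors' values 3 pathway probes rose and 6 fell. The strict filter tested fewer probes, of which 3347 fell, 3 of them other YAP targets. With the brightest probe of each gene 3107 genes rose, 9 of them other YAP targets. FAT1 (ILMN_3247578), which rose by 0.67, read -0.036 under median scaling and -0.17 with no normalization, and TAOK2 (ILMN_1701487), which rose by 0.60, read -0.057 with no normalization. The other FAT1 probe, ILMN_1754795, did not pass as reported (0.40, limma adjusted p = 0.124). The TAOK2 probes ILMN_1715613 and ILMN_2298588 lay below 0 under every alternative (-0.70 to -0.03 and -0.71 to -0.07) and passed under none. The causes of the other moves were not tested.

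Leaving out 1 array gave 2 member rises and 4 to 6 falls, 3875 to 4531 rises and 4210 to 5013 falls over all probes, 3 to 5 rises and 7 to 9 falls in the pathway, and 14 to 16 rises and 5 to 6 falls among other YAP targets. Without ADAR shRNA replicate 2 the member falls were 4, and without ADAR shRNA replicate 1, ADAR shRNA replicate 2 or scrambled replicate 2 the pathway rises were 3. With the replicate number as a block 3 member probes rose and 7 fell, and 5573 and 5995 did over all probes. The block changed no call of the 12 member probes and 3 of 59 in the lists; the deviations of same-numbered arrays correlated at 0.14, and with 2 pairs the numbers were not taken as pairing.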
